A study of Mus musculus with 7 samples.

Results

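Antigen presentation genes were followed across the cells of the mouse gastric epithelium: H2-K1, H2-D1 and B2m of MHC class I, the peptide processing genes Psmb8, Psmb9 and Tap1, and H2-Aa, H2-Ab1, H2-Eb1 and Cd74 of MHC class II. These 10 genes were taken by name from 18907 named genes, and each had reads in the wells kept. The samples were 3 plates labelled pylorus and 4 labelled corpus, all from wild-type C57BL/6 mice, with no treatment in either group. Gastric glands were freed by chelation, broken into single cells, sorted as living (DAPI-negative) cells into plates of 384 wells and sequenced by SORT-seq, which counts unique molecular identifiers (UMIs) at the 3′ end of transcripts. The labels give no age, no sex and no link between plates and animals, so p-values measure only the spread between plates, which may in part be technical. C57BL/6 mice carry the b haplotype of the MHC and lack the class II E molecule because its alpha chain gene is deleted in part, so H2-Eb1, the beta chain, has no partner there.

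Class I molecules are a heavy chain (H2-K1 or H2-D1 in these mice) bound to B2m, and show peptides from inside the cell to CD8 T cells. The peptides are cut by the proteasome, in which the interferon-inducible subunits Psmb8 and Psmb9 can take the place of Psmb5 and Psmb6, and are pumped into the endoplasmic reticulum by the transporter of which Tap1 is one chain. Class II molecules pair an alpha chain (H2-Aa) with a beta chain (H2-Ab1), are escorted by the invariant chain Cd74 and show peptides from endosomes to CD4 T cells. Class I is found on nearly all nucleated cells, while class II belongs to professional antigen-presenting cells and appears on epithelial cells under inflammation.

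The starts of Psmb9 and Tap1 face away from each other across 225 bases, and these genes are described as a pair in the pit-like cells, so the stretch between them is shown with the 200 bases before the starts of H2-K1, H2-D1 and B2m. Sequences are RefSeq's on GRCm38.p6, and 8 of the 10 genes had a promoter entry. Capitals mark matches, on either strand, to CCAAT with its reverse complement ATTGG, to an interferon-response-like motif, GAANNGAAA with its reverse complement TTTCNNTTC, and to a kappa B-like motif, GGGGATTCC with its reverse complement GGAATCCCC. The H2-K1 stretch is chr17:34000348-34000547 on the minus strand, that of H2-D1 is chr17:35262894-35263093 on the plus strand, and that of B2m is chr2:122147487-122147686 on the plus strand. The stretch between Psmb9 and Tap1 is chr17:34187331-34187555, read on the plus strand towards Tap1.
H2-K1: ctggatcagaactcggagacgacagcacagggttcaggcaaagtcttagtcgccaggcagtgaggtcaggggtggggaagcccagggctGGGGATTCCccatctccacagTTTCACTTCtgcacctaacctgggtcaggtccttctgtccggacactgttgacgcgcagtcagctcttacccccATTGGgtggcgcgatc
H2-D1: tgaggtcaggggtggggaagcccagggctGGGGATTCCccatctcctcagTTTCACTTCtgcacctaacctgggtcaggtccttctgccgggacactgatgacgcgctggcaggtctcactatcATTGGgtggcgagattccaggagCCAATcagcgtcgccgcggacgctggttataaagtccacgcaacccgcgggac
B2m: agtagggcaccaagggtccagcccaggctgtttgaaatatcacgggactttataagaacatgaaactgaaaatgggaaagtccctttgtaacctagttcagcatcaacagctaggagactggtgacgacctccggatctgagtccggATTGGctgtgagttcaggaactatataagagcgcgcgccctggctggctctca
Psmb9-Tap1: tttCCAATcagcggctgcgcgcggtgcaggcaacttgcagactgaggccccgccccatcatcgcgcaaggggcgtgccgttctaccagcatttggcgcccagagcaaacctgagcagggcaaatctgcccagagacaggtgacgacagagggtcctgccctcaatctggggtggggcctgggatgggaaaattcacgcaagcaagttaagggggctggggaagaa
H2-K1 and H2-D1 each held one match to the kappa B-like and one to the interferon-response-like motif, and their 200 bases shared an unbroken run of 46 bases. B2m and H2-K1 shared a longest run of 8 bases. B2m held no match to either motif as written here. Its stretch does hold gaaactgaaa, with a longer gap than the interferon-response-like pattern, and gggaaagtccc, which the kappa B-like string leaves out. Lower case there is therefore no sign that B2m lacks such elements. Over the 250 bases before the start, 0.218% of all 27025 promoter entries held the kappa B-like motif, 6.34% the interferon-response-like motif and 34.5% CCAAT. Another motif, TTCNNNGAA, which reads the same on both strands and was held by 7.18% of entries, matched once among these members, in front of Psmb8. The motifs were chosen with the sequences in view, and a match is a string of letters, not a shown binding site.

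Wells with at least 1000 UMIs outside the spike-in rows were kept, 2235 of 2688, of which 983 were pylorus and 1252 corpus. The kept wells held 46826185 UMIs, between 2615624 and 9498860 a plate. Pylorus 1 and corpus 1 stood apart, with 6.55% and 4.27% of UMIs in spike-ins against 0.256% to 0.426% in the other 5 plates. The cells were clustered without the antigen presentation genes, and 15 of 17 clusters met a marker rule and formed 8 classes, named here for what they are like. Counting cells, there were 500 pit-like (surface mucous), 485 neck-like (gland mucous), 290 chief-like, 282 endocrine-like, 163 proliferating-like, 139 parietal-like, 136 immune-like and 50 tuft-like cells, with 190 left unnamed. Cells with the markers of gastric epithelial types were thus present in both regions, and chief-like and parietal-like cells were found in pylorus plates as well as corpus plates. Part of the neck-like, pit-like and chief-like classes lay in different clusters in pylorus 1, corpus 1 and corpus 2 than in 4 plates that were alike, pylorus 2, pylorus 3, corpus 3 and corpus 4. Values in those 4 plates are given where they end a call or move a value by over 1.5 times.

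Class comparisons used UMIs summed per plate and class over plates with at least 10 such cells. Levels are in CPM, the UMIs of a gene per 1000000 UMIs, and differences are limma estimates in log2(scaled CPM + 2) with the plate as a block, which understate the change of low genes. A difference is called where the Benjamini-Hochberg adjusted p over 11601 genes is under 0.05 with TMM scaling, a library scaling by trimmed means, and also without it. Of 224 tests of 8 members over 28 pairs of classes, 80 were called, against 28.3% of all gene-by-pair tests. With TMM scaling alone 87 were called, against 35% of all such tests. When cells were thinned to 1000 UMIs 20 calls of members were made. The share over all genes was not taken there, so members cannot be set against other genes. Scaling matters between classes: the median over all genes of chief-like minus endocrine-like cells, the pair it moved most, was 0.08 with TMM and -0.71 without. H2-Aa and H2-Eb1 had too few UMIs to be tested.

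**Figure D1:**
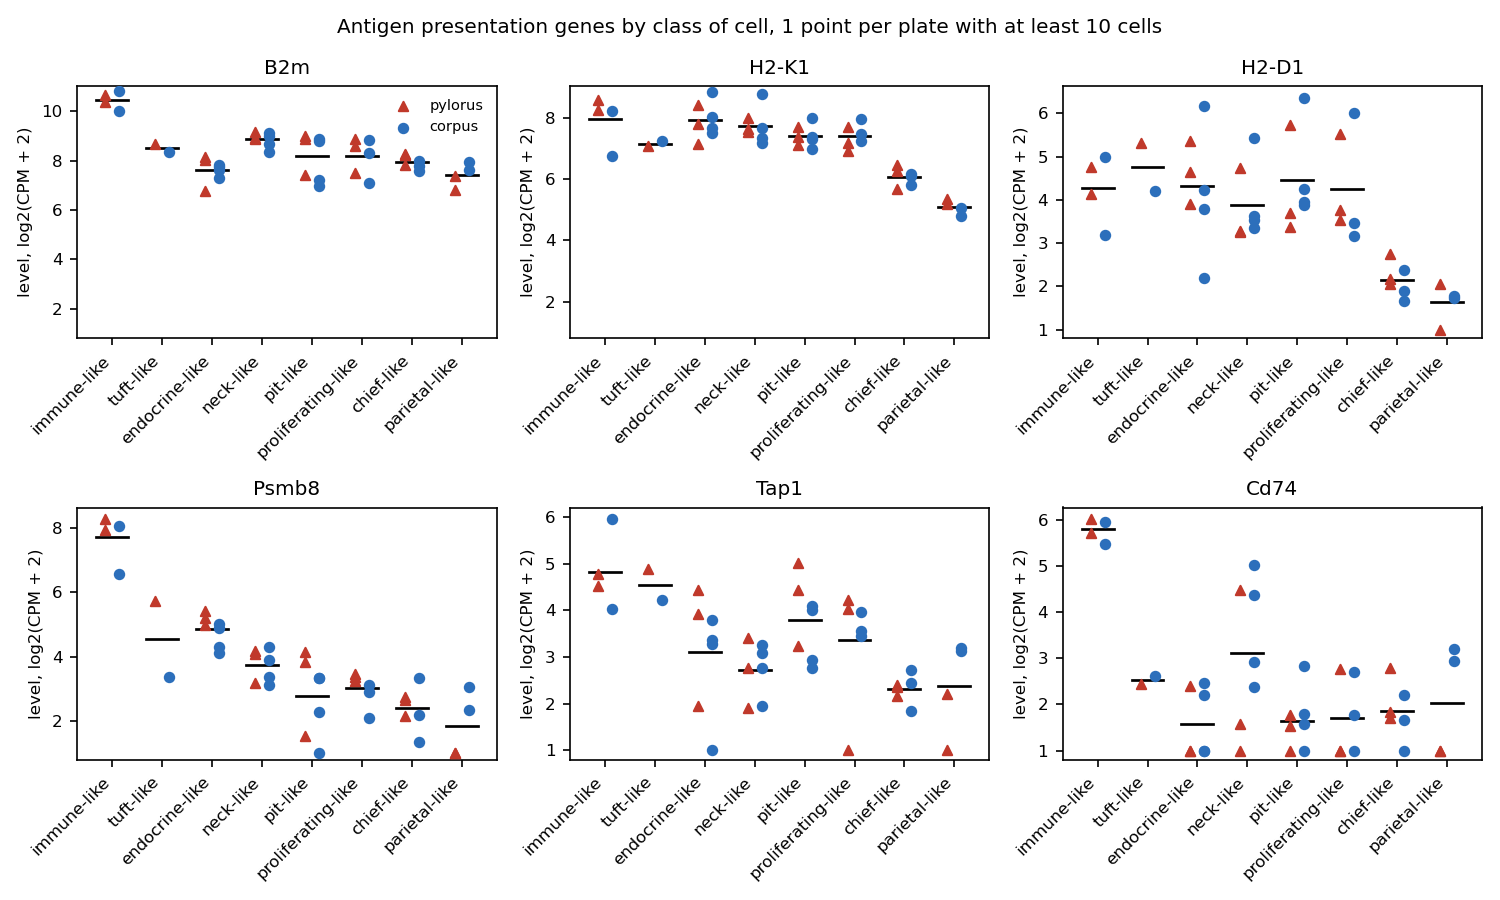
Level of B2m, H2-K1, H2-D1, Psmb8, Tap1 and Cd74 as log2(CPM + 2) by class; each point is 1 plate with at least 10 cells of the class (red triangles pylorus, blue circles corpus) and bars are means of the log2 values. B2m, Psmb8 and Cd74 are highest in immune-like plates, and H2-K1 is lowest in parietal-like plates, at 25.6 to 38.8 CPM.

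B2m, the light chain shared by class I molecules, was highest in immune-like cells and, among epithelial classes, in neck-like cells. It averaged 1439 ± 339 CPM in immune-like cells (SD, n = 4 plates), 472 ± 84.2 in neck-like (n = 7), 362 ± 55.9 in tuft-like (n = 2), 332 ± 175 in pit-like (n = 7) and 321 ± 139 CPM in proliferating-like cells (n = 6). It averaged 247 ± 46.7 CPM in chief-like (n = 6), 203 ± 58.1 in endocrine-like (n = 7) and 177 ± 55.6 CPM in parietal-like cells (n = 4). In that order, 1 of the 7 neighbouring pairs differed, immune-like over neck-like by 0.96 ± 0.30 on the log2 scale (SE, limma adjusted p = 0.00664). When only the 107 immune-like wells with at least 10 UMIs of mast cell markers were used, a choice made after seeing the data, that difference was -0.01, and with cells thinned to 1000 UMIs it was 1.07 (limma adjusted p = 0.0544).

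Neck-like B2m ran over the 7 plates between 324 and 571 CPM with a median of 479, against 108, 278 and 211 CPM for the lowest, highest and median endocrine-like plate. The plates of the 2 classes did not overlap, and the difference was 1.57 ± 0.24 (limma adjusted p = 1.04e-06). Parietal-like plates had 163 and 109 CPM in pylorus and 241 and 194.5 CPM in corpus, all below every neck-like plate, and neck-like cells exceeded them by 1.43 ± 0.30 (limma adjusted p = 0.00019). Pit-like B2m fell into 2 sets of plates. It was 509, 464, 467 and 445 CPM in pylorus 2, pylorus 3, corpus 3 and corpus 4, and 170, 148 and 123.5 CPM in pylorus 1, corpus 1 and corpus 2. The neck-like excess over pit-like cells was 0.56 with TMM scaling (limma adjusted p = 0.103) and was not called under both scalings. In the 4 similar plates it was -0.02 (limma adjusted p = 0.976), with B2m at 522 ± 47.7 CPM in neck-like and 471 ± 27.2 CPM in pit-like cells.

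H2-K1, one of the 2 classical class I heavy chains, had its lowest CPM in acid-secreting (parietal-like) and enzyme-secreting (chief-like) cells. It averaged 272 ± 117 CPM in immune-like, 258 ± 109.5 in endocrine-like, 226 ± 100.1 in neck-like, 174 ± 48.3 in proliferating-like, 173 ± 43.95 in pit-like and 141 ± 10.6 CPM in tuft-like cells. It averaged 66.8 ± 13.8 CPM in chief-like and 32.7 ± 5.60 CPM in parietal-like cells (SD over the same plates as above). The 6 chief-like plates lay between 48.9 and 86.3 CPM and the parietal-like plates had 34.8 and 38.8 CPM in pylorus and 31.7 and 25.6 CPM in corpus. Every chief-like and parietal-like plate was therefore below every plate of the other classes, of which the lowest was an immune-like plate at 106.5 CPM. With TMM scaling chief-like cells were not told apart from tuft-like cells (-0.05, limma adjusted p = 0.917) or proliferating-like cells (-0.38, limma adjusted p = 0.0834), and were called lower than both without it (-1.05 and -1.17). Parietal-like cells were called lower than every other class under both scalings. Chief-like and parietal-like cells were also the deepest, with medians of 35642 UMIs a parietal-like cell and 28864 a chief-like cell.

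Neck-like cells exceeded chief-like cells in H2-K1 by 0.86 ± 0.17 (limma adjusted p = 0.000152) and pit-like exceeded chief-like cells by 0.67 ± 0.17 (limma adjusted p = 0.00123), and both calls were lost with cells thinned to 1000 UMIs (1.36, adjusted p = 0.188, and 0.56, adjusted p = 0.56). Endocrine-like cells exceeded parietal-like cells by 1.95 ± 0.19 (limma adjusted p = 2.15e-11), and chief-like exceeded parietal-like cells by 1.23 ± 0.19 (limma adjusted p = 2.62e-06). The last pair was the one called among the 7 neighbours in the order of levels. Endocrine-like and neck-like cells were not told apart, at -0.14 ± 0.16 with TMM scaling and 0.19 ± 0.16 without it. The heavy chain and its light chain did not follow the same order: endocrine-like cells stood near the top for H2-K1 and near the bottom for B2m, both on the CPM scale.

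H2-D1, the other classical heavy chain, was dominated by 2 plates. Over all kept cells it had 32.9, 7.75 and 9.30 CPM in pylorus 1 to 3 and 64.2, 10.2, 7.05 and 8.94 CPM in corpus 1 to 4. Both replicate 1 plates were thus high, and pit-like cells there had 51.2 CPM in pylorus and 80.5 CPM in corpus, against 8.32 to 17.0 CPM in the other 5 plates. In the 4 similar plates H2-D1 averaged 12.6 ± 8.42 CPM in endocrine-like, 11.4 ± 2.35 in pit-like, 8.43 ± 1.29 in neck-like, 1.88 ± 0.57 in chief-like and 1.23 ± 0.90 CPM in parietal-like cells. As for H2-K1, chief-like and parietal-like cells were low. Over all plates pit-like cells exceeded chief-like cells by 1.73 ± 0.30 (limma adjusted p = 1.04e-05) and parietal-like cells by 2.18 ± 0.34 (limma adjusted p = 2.15e-06). Chief-like and parietal-like cells differed by 0.45 ± 0.35 (limma adjusted p = 0.417). Of 60-base stretches in the last 600 bases of their transcripts, 3.63% of H2-K1 and 2.76% of H2-D1 also occur in another gene, so a small share of their reads could be split. The other 8 members had none.

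Psmb8, the inducible proteasome subunit that can replace Psmb5, was far higher in immune-like cells than in any epithelial class, and among epithelial classes it was highest in tuft-like and endocrine-like cells. Immune-like plates had 244 and 307 CPM in pylorus and 92.3 and 262 CPM in corpus. Endocrine-like Psmb8 averaged 28.1 ± 9.04 CPM, with a lowest plate of 15.4 and a highest of 41.0 CPM. The tuft-like plates had 51.5 CPM in pylorus 3 and 8.26 CPM in corpus 4, so their mean rests on 15 and 2 UMIs. Neck-like cells averaged 12.1 ± 4.61, pit-like 6.85 ± 5.89, proliferating-like 6.55 ± 2.43, chief-like 3.79 ± 2.59 and parietal-like cells 2.38 ± 3.05 CPM. No immune-like plate overlapped any plate of another class.

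Immune-like cells exceeded endocrine-like cells in Psmb8 by 2.51 ± 0.49 (limma adjusted p = 3.64e-05) and parietal-like cells by 5.37 ± 0.54 (limma adjusted p = 3.04e-11). With mast cell wells alone as the immune-like class the 2 differences were 1.80 and 4.63, and both stayed called. Endocrine-like cells exceeded parietal-like cells by 2.87 ± 0.49 (limma adjusted p = 5.56e-06), where 2 of the 4 parietal-like plates had no Psmb8 UMI. Endocrine-like cells exceeded pit-like cells by 1.62 ± 0.41 (limma adjusted p = 0.000816), and in the 4 similar plates by 0.85 (limma adjusted p = 0.176). Pit-like Psmb8 was 15.7, 12.2, 8.18 and 8.06 CPM in pylorus 2, pylorus 3, corpus 3 and corpus 4, and 0.93, 2.88 and 0 CPM in pylorus 1, corpus 1 and corpus 2.

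The share of Psmb8 in the sum of Psmb8 and Psmb5 UMIs sets the inducible subunit against the one it replaces within the same cells. Psmb8 made up 74.2% ± 7.74 in immune-like plates (SD, n = 4), between 67.3% and 85.3%. It made up 20.9% ± 5.95 in endocrine-like plates (n = 7, 14.3% to 28.6%) and 31.3% and 10% in the 2 tuft-like plates. The other epithelial classes averaged 11.3% ± 5.73 (neck-like), 6.02% ± 4.48 (chief-like), 5.41% ± 4.82 (pit-like), 4.39% ± 1.95 (proliferating-like) and 2.75% ± 3.57 (parietal-like). Immune-like plates overlapped none of these, and endocrine-like plates overlapped none of the chief-like, pit-like, proliferating-like or parietal-like ones. The lowest endocrine-like plate, corpus 1, rested on 1 Psmb8 and 6 Psmb5 UMIs. The highest chief-like plate, corpus 4 with 7 Psmb8 and 43 Psmb5 UMIs, lay just below it. The lack of overlap of endocrine-like plates with these 4 classes thus hung on 1 UMI and is a description. The 20 cells of a cluster led by Ccl5, Thy1 and Cd8a, genes of CD8 T cells, had a share of 85.4% (95% Wilson interval 76.1% to 91.4%, counting error only).

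**Figure D2:**
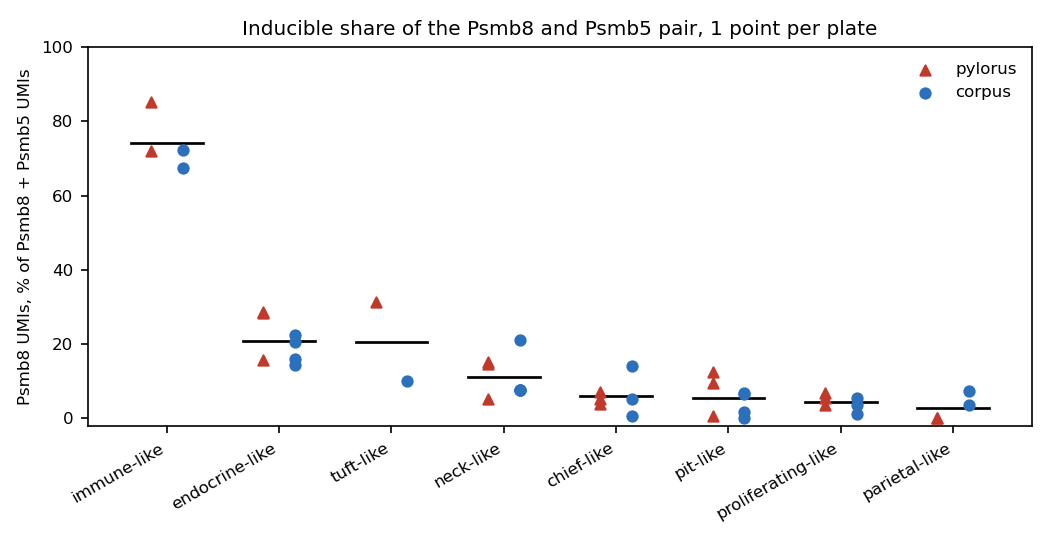
Share of Psmb8 in the UMIs of Psmb8 and Psmb5 in percent, by class, with 1 point per plate (red triangles pylorus, blue circles corpus) and bars at the class means. The immune-like plates lie between 67.3% and 85.3%, above every plate of the epithelial classes, and the endocrine-like plates lie between 14.3% and 28.6%.

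The 2 other inducible subunits gave a less sharp split. Psmb9, which can replace Psmb6, made up 13.8% ± 11.1 of that pair in immune-like, 5.13% ± 2.34 in pit-like, 4.80% ± 3.44 in endocrine-like and 0.61% ± 0.81 in chief-like plates. Psmb10, which can replace Psmb7, made up 51.7% ± 15.2 in immune-like plates, 24.1% ± 11.1 in pit-like, 22.8% ± 6.42 in neck-like, 20.7% ± 8.48 in endocrine-like and 13.5% ± 4.23 in chief-like plates. The 2 tuft-like plates averaged 6.76% ± 9.56 for Psmb9 and 35.0% ± 13.3 for Psmb10, the highest epithelial means of both. All 3 inducible subunits thus had their highest mean share in immune-like cells, while endocrine-like cells stood below tuft-like and pit-like cells for Psmb9 and Psmb10.

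Psmb9 and Tap1, which start from the shared stretch printed above, were low in chief-like and parietal-like cells. Psmb9 averaged 9.90 ± 6.90 CPM in immune-like (on 6 UMIs), 6.96 ± 6.52 in endocrine-like, 6.68 ± 2.44 in pit-like, 0.94 CPM in parietal-like and 0.38 CPM in chief-like cells. The 2 tuft-like plates had 17.2 CPM of Psmb9 in pylorus 3, from 5 UMIs, and 0 in corpus 4. Immune-like minus pit-like cells stood at -0.21 in Psmb9 (limma adjusted p = 0.783). Pit-like cells exceeded chief-like cells in Psmb9 by 1.83 ± 0.47 (limma adjusted p = 0.00198), where the chief-like cells held 4 Psmb9 UMIs in all. Tap1 averaged 30.1 ± 20.4 CPM in immune-like, 21.99 ± 7.72 in tuft-like, 13.9 ± 9.14 in pit-like, 5.11 in neck-like, 4.10 in parietal-like and 3.08 CPM in chief-like cells. Immune-like cells exceeded parietal-like cells in Tap1 by 1.93 ± 0.54 (limma adjusted p = 0.00269), and with mast cell wells alone by 0.47 (limma adjusted p = 0.545). Pit-like cells exceeded parietal-like cells in Tap1 by 1.68 ± 0.49 (limma adjusted p = 0.00742), a call lost without pylorus 2 (1.0, adjusted p = 0.186) or pylorus 3 (1.45, adjusted p = 0.0803). No neighbouring pair in the order of either gene was called.

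Within the pit-like class, class I and processing genes varied between 2 clusters that share the 4 similar plates. A cluster of 99 cells led by Ifit1, Lypd8, Isg15 and Oasl1, of which Ifit1, Isg15 and Oasl1 are interferon-induced antiviral genes, is set here against a cluster of 199 cells led by Aldh3a1, Gkn1 and Tff1. Clusters were made from the cells' own expression, so these values are a description with no test. B2m was 653, 624, 612 and 629 CPM in the Ifit1-led cluster in pylorus 2, pylorus 3, corpus 3 and corpus 4, against 385, 300.1, 402 and 358.5 CPM in the Gkn1 cluster. Every plate had the higher B2m level in the Ifit1-led cluster. Tap1 was 52.8, 31.7, 21.4 and 22.9 CPM in the Ifit1-led cluster and 11.2, 7.06, 10.7 and 11.3 CPM in the Gkn1 cluster. Psmb9 was 19.9, 11.2, 8.80 and 17.2 CPM in the Ifit1-led cluster and 3.45, 1.77, 2.82 and 4.31 CPM in the Gkn1 cluster. Psmb8 was 31.9, 18.9, 16.3 and 12.6 CPM in the Ifit1-led cluster and 1.72, 5.30, 4.52 and 5.92 CPM in the Gkn1 cluster. For none of these 3 genes did the clusters' plates overlap. H2-K1 was 183, 179, 194 and 193 CPM in the Ifit1-led cluster and 148, 94.4, 142 and 151 CPM in the Gkn1 cluster, a smaller gap in the same direction. Class II did not follow: Cd74 lay between 0 and 1.26 CPM in the Ifit1-led cluster and between 0.88 and 6.77 CPM in the Gkn1 cluster. The Ifit1-led cells were also the deeper ones, with a median of 39250 UMIs against 30780.

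**Figure D3:**
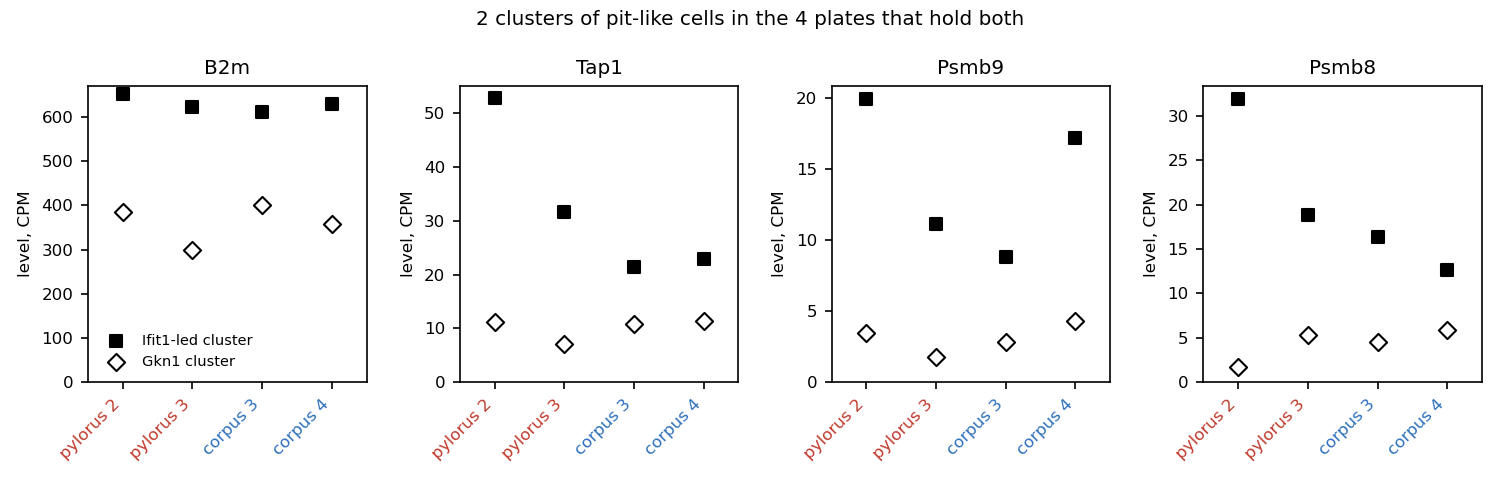
Level in CPM of B2m, Tap1, Psmb9 and Psmb8 in 2 pit-like clusters (filled squares Ifit1-led, open diamonds Gkn1) in the 4 plates that hold both. In each plate the Ifit1-led cluster has the higher value, with B2m at 612 to 653 CPM against 300.1 to 402 CPM.

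The class II genes were rare and concentrated in few wells. H2-Aa, H2-Ab1, H2-Eb1 and Cd74 gave 549 UMIs in all, in 156 wells or 6.98% of those kept, and 13 wells with at least 10 such UMIs held 329 of them. The 10 wells richest in a gene held 64.3% of H2-Aa, 49.0% of H2-Ab1, 64.7% of H2-Eb1 and 58.8% of Cd74 UMIs, against 4.30% for H2-K1 and 4.73% for B2m. Only 7 wells held all 4 class II genes, 4 of them immune-like, and 129 wells held a single one.

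Cd74, the invariant chain, averaged 53.9 ± 9.11 CPM in immune-like cells (n = 4 plates), with 50.4 and 62.4 CPM in pylorus and 42.6 and 59.9 CPM in corpus. Neck-like cells averaged 11.3 ± 11.8 CPM over 7 plates, with a lowest of 0, a median of 5.58 and a highest of 30.2 CPM. In the 4 similar plates they averaged 17.6 ± 12.2 CPM, and the neck-like excesses over endocrine-like (2.29) and pit-like cells (1.80) stayed called there. The other classes averaged 1.34 to 3.78 CPM. Immune-like cells exceeded neck-like cells by 2.12 ± 0.51 (limma adjusted p = 0.000573), and neck-like exceeded endocrine-like cells by 1.57 ± 0.42 (limma adjusted p = 0.0022). Neck-like cells exceeded pit-like cells by 1.39 ± 0.42 (limma adjusted p = 0.0125), a call lost without corpus 4 (1.23, adjusted p = 0.0597) or pylorus 3 (1.16, adjusted p = 0.0715). No plate of the other named classes exceeded 7.15 CPM of Cd74. Cd74 thus passed the filter on low counts only through the immune-like and neck-like sums. Its calls are therefore a description and no support. H2-Ab1, the class II beta chain, averaged 26.5 ± 17.9 CPM in immune-like cells and 2.83 ± 2.21 CPM in neck-like cells, a difference of 2.11 ± 0.41 (limma adjusted p = 3.5e-05). The highest plate of any other class had 6.27 CPM of H2-Ab1. The gene thus passed the filter on low counts only through the immune-like sums. Its 7 calls, each of immune-like cells against another class, are therefore a description and no support. H2-Aa, the alpha chain, averaged 8.93 ± 4.25 CPM in immune-like and 1.94 CPM in neck-like cells, and H2-Eb1 averaged 15.8 ± 23.3 CPM in immune-like and 1.27 CPM in neck-like cells.

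The immune-like class II signal came from a handful of wells. The 107 wells with at least 10 mast cell UMIs held 3 class II UMIs, and the 20 CD8 T wells held none. These T wells held 91098 UMIs in all, so the lack of a count does not show absence. The 9 remaining immune-like wells held 210 class II UMIs, or 5207 CPM, in 8 of the 9 wells. These counts cover all plates. Of the 213 class II UMIs in immune-like wells, 60 lay in the 4 plates that entered the class comparisons. Corpus 1, pylorus 1 and corpus 2 had under 10 immune-like cells and did not enter them. With mast wells alone as the immune-like class, Cd74 was lower there than in neck-like cells, at -1.86 on the log2 scale (limma adjusted p = 0.00238), so the direction of that comparison depends on the wells that are not mast wells. Class I was also uneven: B2m was 4240 CPM in the 9 wells and 4171 CPM in the T wells but 742 CPM in the mast wells. H2-K1 was 1091, 911 and 162 CPM and Psmb8 was 372, 768 and 128.5 CPM in the same 3 sets.

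Of the 13 wells with at least 10 class II UMIs, 6 were immune-like, 5 neck-like and 2 parietal-like. Immune-like wells held 57 class II UMIs in corpus 1, 55 in pylorus 1, 41 in corpus 2, 19 each in pylorus 2 and pylorus 3 and 11 in corpus 4. UMIs of 7 pan-leukocyte genes in these wells were 7, 45, 36, 2, 78 and 50 in that order. The neck-like wells held 39 and 12 class II UMIs in corpus 3, 19 and 18 in corpus 4 and 14 in pylorus 3, with 1 pan-leukocyte UMI in 2 of them and none in the other 3. The well with 39 held 29 Cd74, 6 H2-Ab1, 2 H2-Aa and 3 Ciita UMIs (the class II transactivator) beside 15 of Muc6 and 13 of Pigr, genes of the neck-like cluster, and 62 of B2m. The other 4 were poorer in these markers, with 28, 5, 4 and 0 Muc6 and 3, 3, 0 and 1 Pigr UMIs beside 18, 14, 12 and 19 class II UMIs, so the last is neck-like by its cluster and not by Muc6. The 5 wells also held 2 to 12 Atp4b UMIs. The parietal-like wells held 14 class II UMIs in corpus 3, with 547 Atp4b UMIs, and 11 in corpus 4, with 245 (Atp4b is a subunit of the acid pump). Neither held a pan-leukocyte UMI, and none of these 7 epithelial wells held a UMI of the macrophage and dendritic cell markers other than Cst3. Lcp1 and Cst3 were left out of the 2 lists after their UMIs were seen in epithelial wells.

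**Figure D4:**
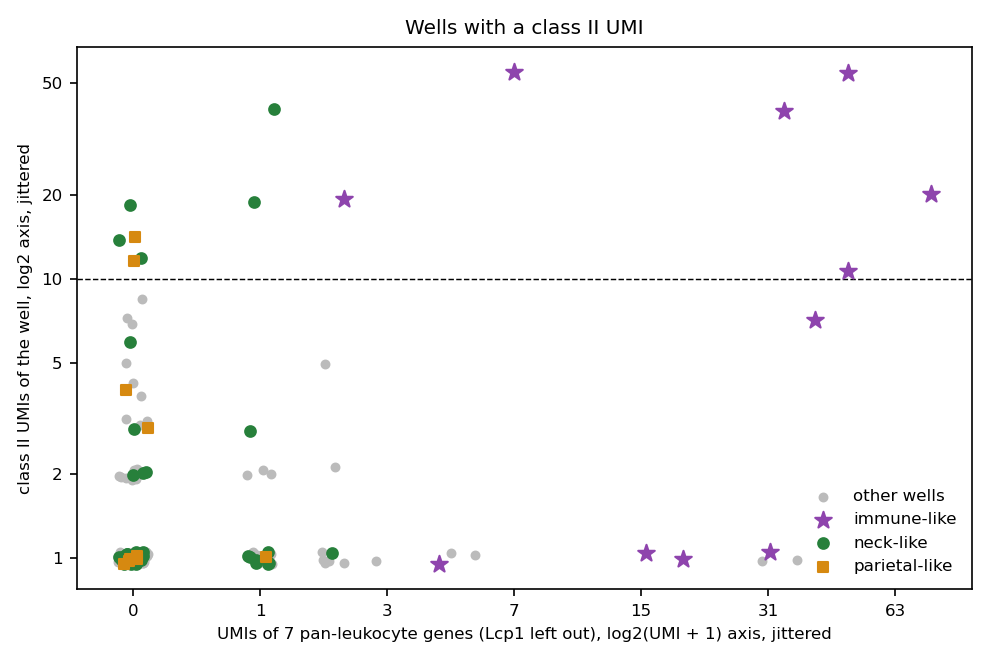
Each of the 156 wells with a class II UMI, by its UMIs of 7 pan-leukocyte genes (horizontal, log2 axis of UMI + 1) and its class II UMIs (vertical, log2 axis), with classes in colours and points jittered. The immune-like wells with 11 to 57 class II UMIs lie at 2 to 78 leukocyte UMIs, and neck-like and parietal-like wells with 11 to 39 lie at 0 or 1 leukocyte UMI.

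Summed over cells, class II made up 347 CPM in immune-like, 19.95 in neck-like, 7.69 in parietal-like, 6.48 in endocrine-like, 4.87 in proliferating-like, 3.5 in pit-like, 3.34 in chief-like and 2.40 CPM in tuft-like cells. Without the wells of at least 10 UMIs the neck-like value was 6.28, the parietal-like 2.68 and the immune-like 18.75 CPM. Mast cell markers, which epithelial cells should lack, stood at 98.3 CPM in neck-like and 44807 CPM in immune-like cells. In the other epithelial classes they ran from 73.8 CPM (endocrine-like) to 211 CPM (chief-like). The source of these UMIs in epithelial wells was not tested. Per 100 pan-leukocyte UMIs there were 164 class II UMIs in neck-like and 6.90 in immune-like cells. Most immune-like wells were mast or CD8 T wells, which held 3 and 0 class II UMIs. In the richest immune-like well, in corpus 1, 57 class II UMIs stood beside 7 pan-leukocyte UMIs. The ratio of the summed class therefore cannot tell where the neck-like class II UMIs came from, which was not tested. The neck-like cluster led by Bpifb1, Muc6 and Pigr held all 5 of the rich neck-like wells. After every cell was thinned to 3000 UMIs, 5.44% ± 5.52 of immune-like wells (n = 4 plates) and 1.65% ± 1.16 of epithelial wells (n = 7) had a class II UMI, leaving out shallower wells (30 immune-like and 40 epithelial ones in pylorus, 14 immune-like and 96 epithelial ones in corpus). Without thinning the shares were 6.98% ± 5.46 and 6.56% ± 3.95, at medians of 3757 and 20189 UMIs a cell.

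H2-DMb1, a chain of the peptide exchanger that loads class II molecules, was higher in neck-like cells than in the 6 other epithelial classes. It averaged 20.3 ± 5.67 CPM in neck-like cells, with 11.2 CPM in the lowest of 7 plates and 26.8 CPM in the highest, and 0.54 to 6.59 CPM in the other epithelial classes. Neck-like cells exceeded pit-like cells in H2-DMb1 by 1.71 ± 0.35 (limma adjusted p = 0.000263), and all 6 such differences were called. Immune-like cells, at 31.3 ± 15.5 CPM, differed from neck-like cells by 0.23 (limma adjusted p = 0.694). H2-DMb1 has a near-identical neighbour gene, H2-DMb2, so its count may hold reads of both. H2-DMa, the other chain of the exchanger, gave 28 UMIs and Ciita 12 UMIs over all wells.

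Pylorus and corpus were then compared to ask whether the region changes these genes. Over all kept cells none of the 9 members tested was called, and 0.0167% of the 12003 genes tested were, 2 genes. At an unadjusted p under 0.05 there were 153 genes and no member, H2-Aa having the members' lowest p of 0.134 in the limma fit. B2m had 282, 429.7 and 389 CPM in pylorus 1 to 3 and 196, 233, 355 and 399 CPM in corpus 1 to 4, a difference of 0.39 ± 0.36. H2-K1 had 195, 129 and 136 CPM in pylorus and 292, 156, 110.4 and 137 CPM in corpus, a difference of -0.06 ± 0.26. The ranges of the 2 regions overlapped for both genes, and corpus 1 held the highest H2-K1 and the lowest B2m. Psmb8 had 6.12, 16.1 and 19.3 CPM in pylorus and 5.20, 10.7, 9.05 and 12.3 CPM in corpus, a difference of 0.44 ± 0.40. Cd74 had 15.3, 1.45 and 7.41 CPM in pylorus and 9.65, 7.98, 8.84 and 5.88 CPM in corpus, a difference of -0.24 ± 0.48. The pylorus 1 value rested on immune-like wells and was 0.38 CPM without them. Over the 9 members the differences ran from -0.68 (H2-Aa) to 0.44 (Psmb8) with a median of -0.05, where the median over all genes was 0.00.

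**Figure D5:**
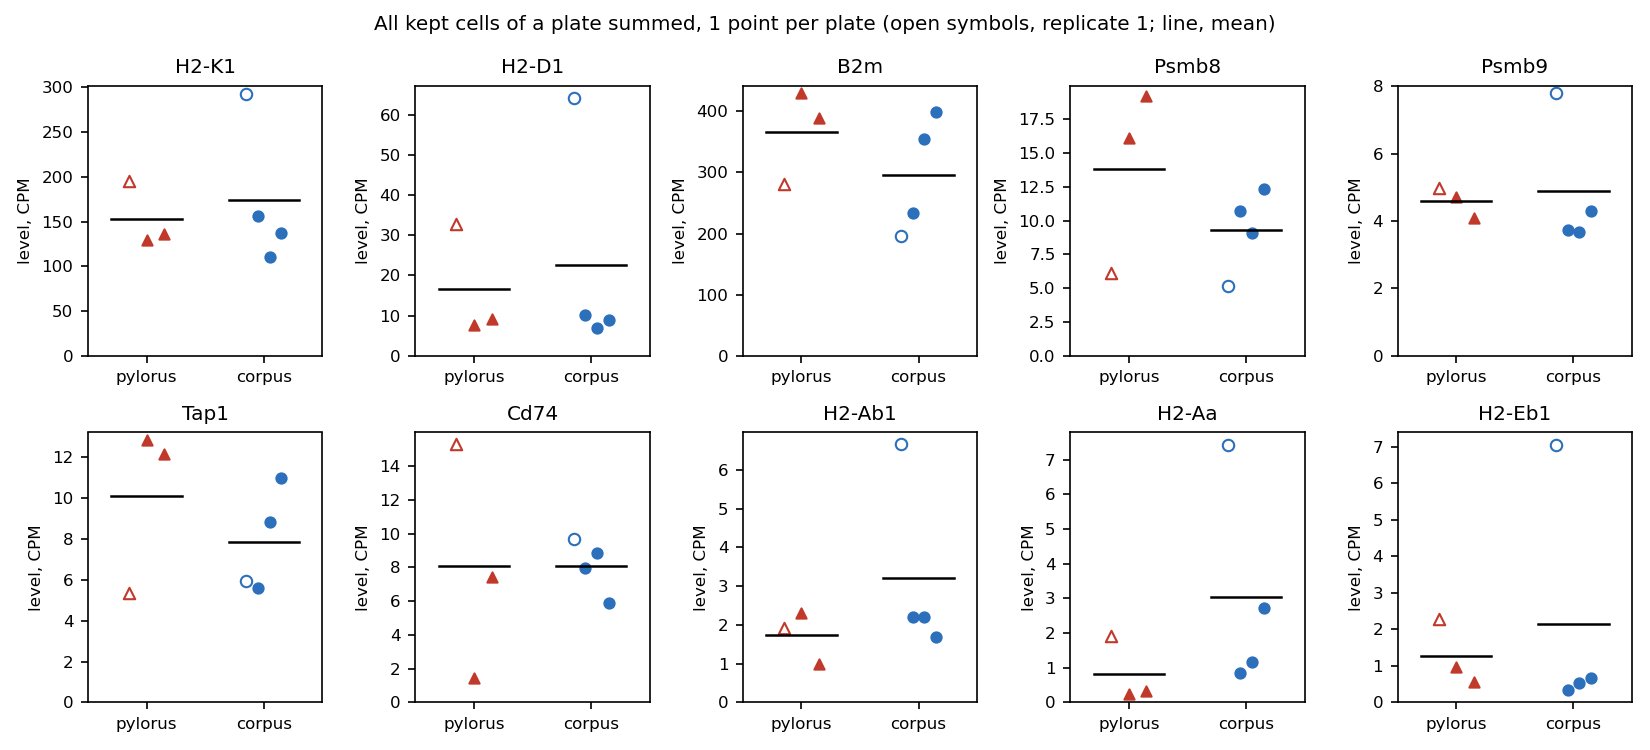
Level in CPM of each antigen presentation gene over all kept cells of a plate, with the 3 pylorus plates left of the 4 corpus plates and a bar at the mean. The regions overlap for each gene shown, and corpus 1 stands high for H2-D1 at 64.2 CPM.

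Within classes, no member was called in chief-like, endocrine-like, immune-like, pit-like or proliferating-like cells, where 0% of all genes were called, and none in neck-like cells, where 0.0494% were. At an unadjusted p under 0.05 the limma fits held 181, 112, 129, 228, 139 and 259 genes in these 6 classes as ordered here, and no member; with voom weights 3 genes were called in immune-like and 1 in pit-like cells. In parietal-like cells 1 of the 2 members tested was called, B2m, where 7.08% of 6860 genes were. Parietal-like B2m had 163 and 109 CPM in pylorus 2 and 3 (12 and 20 cells) and 241 and 194.5 CPM in corpus 3 and 4 (56 and 42 cells), and the 2 regions did not overlap. The difference was -1.01 ± 0.21 with TMM scaling (limma adjusted p = 0.00826) and -0.69 without it. It stayed called when each plate was left out, where a single plate is then assumed to vary like the others, with values between -1.38 and -0.64. H2-K1 in the same cells differed by 0.04 ± 0.26 (limma adjusted p = 0.942). The region difference of B2m in parietal-like cells differed from that in chief-like, endocrine-like, neck-like, pit-like and proliferating-like cells, as tested by interaction terms. It was higher by 1.13 in chief-like (where 2.35% of all genes were called), 1.501 in endocrine-like (1.15%) and 0.88 in neck-like cells (1.94%), and parietal-like minus pit-like cells stood at -1.06 (1.5%) and parietal-like minus proliferating-like cells at -1.19 (1.17%). Psmb8 stood at -2.49 in parietal-like minus pit-like cells, and these were the 6 calls in 104 such tests. Psmb8 had passed the filter there through the pit-like cells, both pylorus parietal-like plates were at 0 UMIs, and the call was lost with no filter (-2.48, adjusted p = 0.15). Each of the 6 calls was lost under at least one alternative. Without TMM the B2m calls against neck-like (0.66, adjusted p = 0.111), pit-like (-0.79, adjusted p = 0.0598) and proliferating-like cells (-0.88, adjusted p = 0.0619) were lost. With cells thinned to 1000 UMIs the B2m calls against chief-like, endocrine-like, neck-like and pit-like cells were lost, with adjusted p between 0.29 and 0.476. Without corpus 3 the chief-like (0.93), neck-like (0.72) and proliferating-like (-0.80) calls of B2m and the Psmb8 call (-2.94) were lost, and without corpus 4 the neck-like (1.06) and Psmb8 (-2.10) calls were lost. Without pylorus 2 the endocrine-like call (1.79) was lost, and without pylorus 3 the chief-like call (0.62).

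The rest of the pathway was followed in lists of genes, described by counts of calls and by medians of the TMM-scaled log2 differences. Only some of the 28 pairs of classes are described. In endocrine-like minus parietal-like cells, where 31.7% of all genes were called, 7 of 10 tested class I pathway genes were higher and none lower, led by Tapbpl, a peptide editor, at 2.39, Tap2 at 1.80, Tapbp at 1.52 and H2-T10 at 1.48. Of 14 interferon-gamma response genes, 5 were higher and none lower, led by the transcription factor Irf1 at 3.18, Gbp7 at 1.61, Irgm2 at 1.59 and Gbp6 at 1.07. Outside endocrine-like cells no plate of a named class exceeded 7.40 CPM for H2-T10. Outside endocrine-like and immune-like cells none exceeded 4.33 CPM for Gbp6. Both genes passed the filter on low counts only through the sums of these classes, so their calls are a description. The medians of these differences were 1.09 over the class I pathway and 0.75 over the interferon-gamma list, where that over all genes was 0.03. Irf1 averaged 49.5 ± 9.94 CPM in endocrine-like and 3.03 ± 2.20 CPM in parietal-like cells. In parietal-like minus pit-like cells, where 25.2% of all genes were called, 10 of 14 interferon-gamma response genes were lower and none higher, led by Gbp3 at -2.67, Irgm2 at -2.46, the receptor chain Ifngr1 at -2.43 and Gbp7 at -2.37. Ifngr1 averaged 9.91 ± 4.16 CPM in parietal-like and 69.1 ± 10.2 CPM in pit-like cells. Class I pathway genes were lower in 3 of 10 (Tapbp, the peptide loading chaperone, at -0.89, Pdia3 at -0.78 and Canx at -0.48) and higher in none. The medians here were -1.92 over the interferon-gamma list and -0.52 over the class I pathway, where that over all genes was -0.08.

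In immune-like minus neck-like cells, where 41.4% of all genes were called, class I pathway genes split into 1 higher, the transactivator Nlrc5 at 1.72, and 2 lower, the folding chaperones Pdia3 at -1.40 and Canx at -0.65. Class II pathway genes split into 1 higher, the protease Ctss at 4.70, and 3 lower, Ctsl at -3.19, Lgmn at -2.97 and Ifi30 at -1.91, which are also lysosomal enzymes. Outside immune-like cells no plate exceeded 2.75 CPM for Nlrc5 or 3.05 CPM for Ctss. Both passed the filter on low counts only through the immune-like sums, so these 2 calls are a description. Interferon-gamma response genes split into 5 higher, led by Gbp2 at 2.85, the kinase Jak1 at 1.92 and Igtp at 1.89, and 1 lower, Jak2 at -0.91. The list medians were -0.09 (class I), -0.16 (class II) and 0.63 (interferon-gamma), where that over all genes was -0.28. In neck-like minus proliferating-like cells, where 24.5% of all genes were called, 11 of 12 constitutive proteasome genes were lower, led by Psma7 at -0.91 and Psmc1 at -0.89, with a list median of -0.65 and a median over all genes of 0.08. This was not particular to neck-like cells. Against proliferating-like cells, 11 of the 12 were also lower in immune-like cells (45.1% of all genes called) and 8 in endocrine-like cells (50.3%). In chief-like cells 7 were lower (24.2%) and in parietal-like cells 1 (25.9%). None was lower in pit-like cells, where 4.84% of all genes were called, or in tuft-like cells (23.5%). Pylorus minus corpus over all cells gave no call in any of the 6 lists with limma, and 1 of their genes, Igtp, had an unadjusted p under 0.05 (0.0488). The most abundant class I pathway genes there were Calr, at 418 CPM in pylorus and 469 CPM in corpus after TMM scaling, and Canx, at 302 CPM in pylorus and 314 CPM in corpus.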

How the data were processed

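The deposited files are tables of unscaled UMI counts, with genes in rows and wells in columns, for 7 plates. Their unit was entered as other, because well columns named by number could not be checked as counts. Per the submitters' processing notes, reads were mapped to mm9, and the aligner and the counter were not given in the sources used here. UMIs have 6 bases, so a value cannot exceed 4095. Intervals cover counting error only.

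ERCC rows and wells under 1000 UMIs were dropped. Cells were scaled to 10000 UMIs and clustered with scanpy 1.11.5 and igraph 0.11.9 (2043 variable genes without the antigen presentation genes, 30 principal components, 15 neighbours, Leiden resolution 1.0, no batch correction). A cluster was named where at least 3 markers met a detection and fold rule, chosen after seeing the clusters. Doublets were not searched for, as each well was filled by a cell sorter. All plates share one set of 384 well barcodes by design.

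UMI sums per plate, or per plate and class with at least 10 cells, were tested with limma 3.58.1 in R 4.3.3 with a mean trend on log2(TMM-scaled CPM + 2), for genes with about 10 counts at the median library and 15 in all. P-values were Benjamini-Hochberg adjusted over all genes tested. The procedure was tested on simulated data. Alternatives covered scaling, pseudocount, filter, thinning, clustering, depth and each plate left out. Plates were not treated as paired by number. The named genes are the 10 members, up to 4 list genes per comparison by size of change, otherwise the 2 most abundant, and the 5 genes most correlated with Cd74, H2-K1 and Psmb8. H2-DMb1, Cd274, the values of Irf1 and Ifngr1 and the markers of single wells were named after their values were seen. The members and lists were chosen with earlier results of these data known.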

Additional observations from a re-analysis of the deposited data

Results flagged for a closer look

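Corpus replicate 1 lay far above the other corpus plates in 6 of the 31 groups of plates examined, where chance gives about 1 in 20. H2-D1 stood at 64.2 CPM there over all kept cells, against 7.05 to 10.2 CPM in the other corpus plates. In neck-like cells H2-D1 stood at 40.9 CPM there, against 8.25 to 10.3 CPM. In pit-like cells H2-D1 stood at 80.5 CPM there, against 12.9 to 17.0 CPM. Psmb9 stood at 7.80 CPM over all kept cells, against 3.69 to 4.30 CPM. H2-Ab1 stood at 6.68 CPM, against 1.70 to 2.21 CPM, and H2-Eb1 at 7.06 CPM, against 0.34 to 0.68 CPM. One immune-like well of that plate held 10 H2-Ab1 and 12 H2-Eb1 UMIs. Corpus replicate 1 was also a shallow plate, with 2693140 UMIs in kept wells, and its spike-in share was high.

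The region difference (pylorus minus corpus) of B2m was itself different in parietal-like cells by interaction tests. On the log2 scale it was higher by 1.13 in chief-like minus parietal-like cells, by 1.501 in endocrine-like minus parietal-like cells and by 0.88 in neck-like minus parietal-like cells. It was -1.06 in parietal-like minus pit-like cells and -1.19 in parietal-like minus proliferating-like cells. For Psmb8 the value was -2.49 in parietal-like minus pit-like cells, where the pylorus parietal-like plates had no Psmb8 UMI.

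Wells under 1000 UMIs, which entered no comparison, held 46 class II UMIs in 453 wells. Of these, 37 were in 1 well of corpus replicate 1 with 589 UMIs in all, and the other 9 came to 49.7 CPM.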

How the results depend on the processing

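Of the single-gene values, 810 kept direction and side of the threshold, 45 were no longer past it, 7 came past it and 32 turned sign. Depth limits the rare genes: H2-Aa and H2-Eb1 were too low for class tests. The planned quasi-likelihood count model was not run, because the unit was not accepted as counts. The cause of the changes below was not tested.

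Over all cells the number of genes called between regions (2) was 0 with pseudocount 8, with no filter and with voom weights, 1 when thinned and 441 in the 4 similar plates, with 0 to 2 when a plate was left out. Psmb9 turned to -0.025 without TMM, -0.056 in wells of at least 3000 UMIs and -0.010 without immune-like cells, and Cd74 to 0.0025 in wells of at least 3000 UMIs. With a plate left out, Cd74 ranged from -0.79 to 0.39, H2-K1 from -0.25 to 0.12, H2-D1 from -0.64 to 0.52 and Psmb9 from -0.078 to 0.12.

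Within classes, the 4 similar plates gave 43 called genes in chief-like, 18 in endocrine-like, 71 in neck-like, 232 in pit-like and 15 in proliferating-like cells. Chief-like cells gave 3 without the filter and 0 to 3 with a plate left out. Immune-like cells gave 3 with voom weights, 3 in wells of at least 3000 UMIs and 1 to 59 with a plate left out. Neck-like cells gave 0 when thinned, and pit-like cells gave 2 with pseudocount 8, 1 with voom weights and 0 to 4 with a plate left out. Proliferating-like cells gave 0 to 2 with a plate left out. Parietal-like cells (486 called) gave 1009 without TMM, 27 when thinned and 142 to 1380 with a plate left out, where H2-K1 ranged from -0.10 to 0.14.

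Same-numbered plates of the 2 regions deviated with correlations of 0.39, -0.05 and 0.50, so the numbers were not taken as pairs. With the replicate block, 1 gene was called over all cells, 2 in chief-like, 23 in neck-like, 2 in pit-like and 1 in proliferating-like cells.

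Between classes, 20 members' tests were called with thinning to 1000 UMIs, against 87 in the TMM fit, and the other settings gave 63 to 103. The share over all genes was not taken with thinning or in most other settings. Of 39 called class contrasts chosen for tracking, 20 kept call and direction under every alternative, and 21 when the mast wells are not counted. H2-K1 endocrine-like minus neck-like was 0.19 without TMM and 0.30 when thinned. Psmb9 immune-like minus pit-like was 0.073 without TMM and ranged from -0.55 to 0.59 with a plate left out. In the 4 similar plates B2m neck-like minus pit-like was -0.025 and Tap1 immune-like minus pit-like was -0.014. With Leiden resolution 2.0, Cd74 of immune-like cells was -1.77 against neck-like, -0.52 against pit-like and -0.27 against endocrine-like cells. With mast wells only, a choice made after seeing the data, Cd74 was -1.86, -0.46 and -0.27 in these comparisons. B2m was then -0.012 and Tap1 -0.031 against neck-like cells, Tap1 -1.20 against pit-like cells and H2-K1 -0.53 against endocrine-like cells. The share of epithelial wells with class II (1.65%) was 0.0959% at 3 or more UMIs and 6.56% without thinning, and 1.43% to 1.93% with a plate left out, while the immune-like share ranged from 2.90% to 7.25%.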

Other observations

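Cd274, the ligand PD-L1 that restrains T cells, was seen in immune-like and endocrine-like cells. It averaged 73.9 ± 11.5 CPM in immune-like cells (SD, n = 4 plates) and 13.5 ± 10.8 CPM in endocrine-like cells (n = 7), with 4.71 CPM in the lowest endocrine-like plate and 35.2 CPM in the highest. The other classes averaged 0.11 to 1.72 CPM. Endocrine-like cells exceeded neck-like cells in Cd274 by 2.12 and pit-like cells by 1.92 on the log2 scale. Both were called in the limma fit under both scalings, where 34.1% and 42.2% of all genes were. Outside immune-like and endocrine-like cells no plate of a named class exceeded 3.43 CPM. Cd274 thus passed the filter on low counts only through the sums of these classes, so its calls are a description. The gene rests on 93 UMIs over all kept cells.

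Across 43 sums of plate and class, which share plates and depth, levels on the log2 scale were correlated as a description. The 2 class I heavy chains, H2-K1 and H2-D1, had a Pearson r of 0.72, and 0.73 over the 39 sums without immune-like cells. Psmb9 and Tap1 had 0.53 and 0.54 in the same way, B2m and H2-K1 0.15 and 0.00, and Cd74 and H2-Ab1 0.77 and 0.55.

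The 5 genes most like Cd74 among 11600 were Mcpt1 (r = 0.78), Fcer1g (0.77), H2-Ab1 (0.77), Cma1 (0.76) and Tpsab1 (0.76), of which Mcpt1, Cma1 and Tpsab1 are mast cell proteases. Within wells the same genes lay apart: the 107 mast wells held 1 Cd74 UMI. Those most like H2-K1 were Fos (0.73), H2-D1 (0.72), Fam46a (0.72), Plekha2 (0.71) and Isg20 (0.69). Those most like Psmb8 were Itgae, Jak1, Samhd1, Satb1 and Ccdc82, each at 0.82.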
